A study of Homo sapiens with 4 samples.

Results

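The E2F transcription factors and the retinoblastoma pocket proteins were examined as 10 genes, namely E2F1, E2F2, E2F3, E2F4, E2F5, E2F7, E2F8, RB1, RBL1 and RBL2. They were taken by gene symbol, with no filter on their values, from the 19775 genes that the arrays measured. Earlier results of these data were known when they were chosen. The 10 genes were covered by 22 probe sets, a probe set being a group of short probes against 1 transcript region. HCCLM3 is a human hepatocellular carcinoma cell line, and its cells had been separated magnetically by EpCAM, an epithelial adhesion protein on the cell surface. The EpCAM-negative fraction was transfected at 100 nM with miR-429 mimic (a duplex RNA standing in for the microRNA) or with the negative-control mimic (NC mimic). To the EpCAM-positive fraction, antagomir-429, a cholesterol-conjugated antisense RNA that binds miR-429, or the NC antagomir was added at 40 µM. All cells were of the same line and were treated for 4 days, and the labels give 1 array for each of the 4 groups. The sorted fraction and the kind of reagent changed together between the pairs, so the comparison of the control arrays cannot tell the fraction from the reagent.

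E2F proteins bind DNA and control genes that cells need to enter S phase. E2F1, E2F2 and E2F3 mainly activate them, E2F4 and E2F5 mainly repress them together with pocket proteins, and E2F7 and E2F8 are atypical repressors that act without a pocket protein. The pocket proteins RB1 (pRb), RBL1 (p107) and RBL2 (p130) hold E2F proteins inactive until cyclin-dependent kinases phosphorylate them. In liver tumours this switch is often disturbed, by loss of pocket protein function or by high cyclin and E2F levels.

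The reagents were built around a single microRNA, so its sequence is shown with those that share its seed, the bases 2 to 8 that pair with targets. Of 2370 mature human microRNAs in the RefSeq table (GRCh38.p14), 3 carried this seed, which is in capitals.
hsa-miR-429: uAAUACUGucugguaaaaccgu
hsa-miR-200b-3p: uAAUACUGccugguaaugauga
hsa-miR-200c-3p: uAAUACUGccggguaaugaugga
Those of miR-429 and miR-200b-3p lie on chr1:1169055-1169076 and chr1:1167160-1167181, and that of miR-200c-3p on chr12:6963742-6963764, all on the plus strand. Target sites in the members' transcripts were not analysed here.

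Signals are linear MAS5 values from 1-colour Affymetrix arrays, and each array as deposited had the same trimmed mean, 500.1. Between 54.2% and 55.9% of probe sets on each array were at or above a signal of 52.9, called the floor, which is the median over probe sets of each one's mean log2 signal on the 4 arrays. Of the line's markers, KRT8 had signals from 28365 to 33449 and AFP from 91.5 to 119, while ALB and KRT19 were under the floor on all 4 arrays. EPCAM had 1106 on the EpCAM-negative NC mimic array and 1235 on the EpCAM-positive NC antagomir array, so the control arrays of the opposite sorts differed little in it, while it had 3838 with the miR-429 mimic (3.47-fold above its control) and 913 with antagomir-429. Of the markers of other cells, 1 of 3 measured leukocyte markers passed the filter, with summed signals from 111 to 160, and 5 of 5 stromal and endothelial markers did, with summed signals from 8001 to 11418 that were mostly COL1A1. PTPRC, which defines leukocytes, was under the floor on all arrays. The part of other cells in the results was not tested. With 1 array per group there was no replicate spread, so no test could be made, and precision is limited by that number.

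Of the 10 members, 1 was at least 2-fold higher with the miR-429 mimic, 1 was at least 2-fold higher with antagomir-429, and 0 were 2-fold lower in either. With the mimic it was E2F7, an atypical repressor (log2 ratio 1.05). With the antagomir it was E2F4, a repressor that works with pocket proteins (log2 ratio 1.05), by 1 of its 2 probe sets. Each gene was represented here by its brightest probe set, and all 10 passed the floor by their mean. Each array measured RNA pooled over a culture, so fewer cells with a transcript and less transcript per cell cannot be told apart.

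Set against all genes, whatever their signal, these counts were near the background. Of all 13180 genes that passed the floor, 9.01% were at or past 2-fold with the mimic, 7.25% with the antagomir and 8.32% between the control arrays, where 0 of the 10 members were. These shares depended on signal. Of 4 equal groups of genes by signal, E2F1, E2F2, E2F4 and E2F7 were in the second brightest, where 2.31% were past 2-fold with the mimic and 0.212% with the antagomir. E2F3, E2F5, E2F8, RB1 and RBL2 were in the next, with 8.19% and 4.58%. RBL1 was in the dimmest, with 24.9% and 24.2%. The median log2 ratio of the members was 0.36 with the mimic, against -0.002 for all genes, and 7 members lay above 0, or 6 with median centring or quantile normalization. It was 0.16 with the antagomir, against 0.007, again with 7 above 0, or 6 with either of these. Between the control arrays it was -0.01, against -0.02, with 5 above and 5 below 0. Of all genes 49.9% lay above 0 with the mimic, 51.0% with the antagomir and 47.8% between the controls. With the mimic, 5 members differed by more than 1 robust SD of genes of like signal, the scaled median absolute deviation of the log2 ratios of genes binned by signal into 4 groups of equal size, as did 32.2% of all genes. With the antagomir 2 members did, against 33.1% of genes, and between the controls 6 did, against 32.9%. Centring each array on its median moved the median of all genes with the mimic to -0.11, and the members' median to 0.25.

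**Figure D1:**
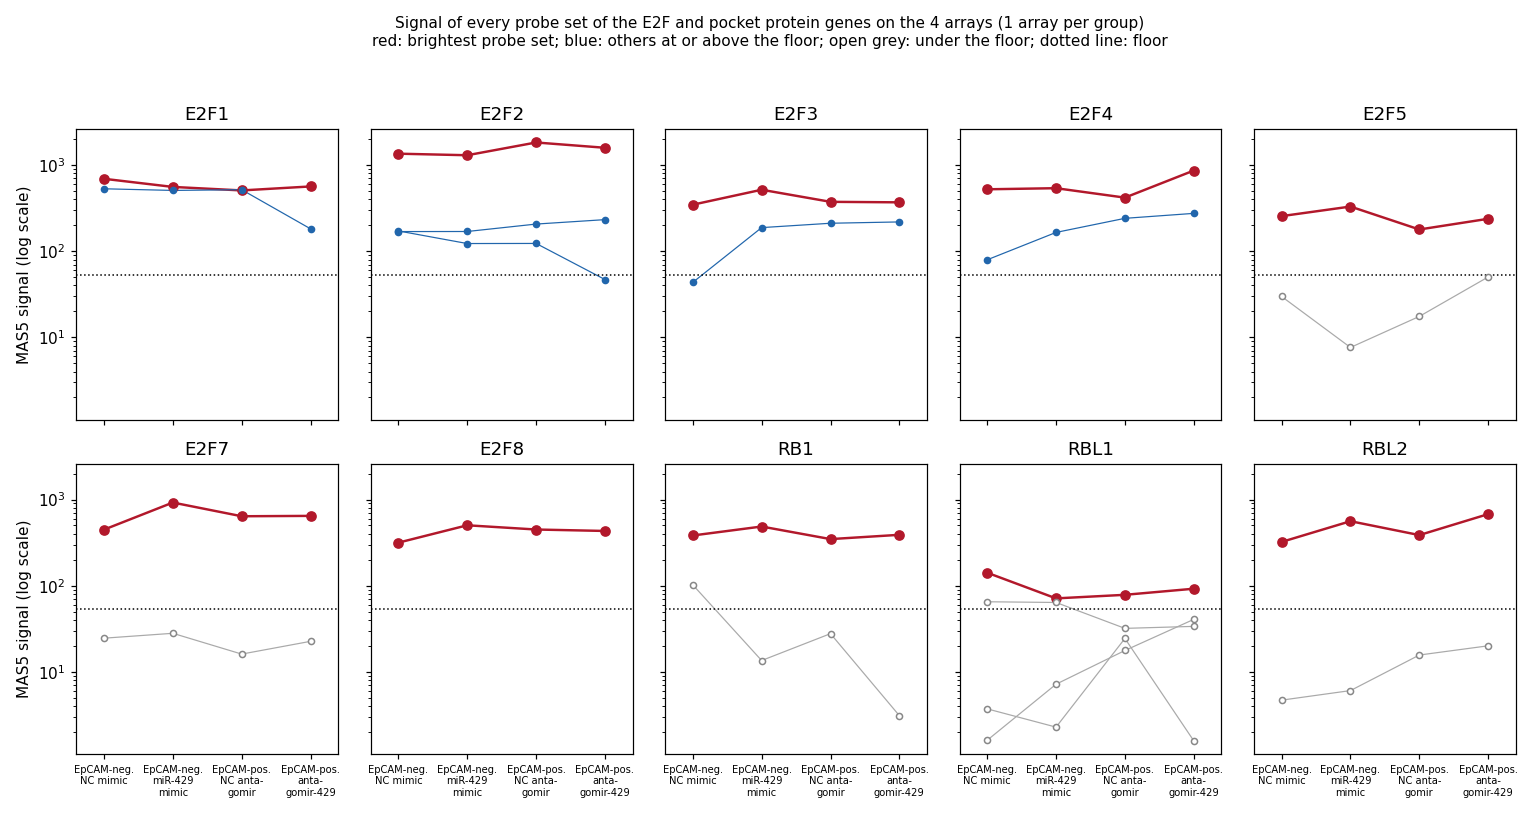
Signal (vertical axis, logarithmic, MAS5 units) of all 22 probe sets of the 10 members on the 4 arrays (horizontal axis, 1 array per group); lines join the points of a probe set, open grey points belong to probe sets whose mean is under the floor, and the dotted line is the floor. E2F7 stands highest with the miR-429 mimic at 923, and the second probe sets of E2F1, E2F3 and E2F4 do not follow the brightest ones.

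Among the activators, E2F1 was not lower by 2-fold with the mimic by either of its probe sets. Its brightest probe set, 2028_s_at, had signals of 693 with the NC mimic, 558 with the miR-429 mimic, 508 with the NC antagomir and 565 with antagomir-429. The EpCAM-negative NC mimic array was the highest and the NC antagomir array the lowest, a range of 0.45 on the log2 scale. For the mimic the log2 ratio was -0.31 and for the antagomir 0.15, each within 1 robust SD of genes of like signal (0.46 and 0.26). The other probe set, 204947_at, had 530, 508 and 518 on the first 3 arrays and 182 with antagomir-429. By that probe set E2F1 was 2.85-fold lower with the antagomir (log2 ratio -1.51), so the probe sets of E2F1 disagreed in sign there and differed by 1.66.

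E2F2, another activator, showed the same kind of split. Its brightest probe set, 228361_at, had signals of 1356, 1301, 1830 and 1588 in the array order just used, with log2 ratios of -0.06 for the mimic and -0.20 for the antagomir. Both EpCAM-positive arrays were higher than both EpCAM-negative arrays in this probe set, and the control arrays differed by 0.43. Probe set 235582_at had 169, 169, 206 and 232, with the EpCAM-positive arrays again higher. Probe set 207042_at had 172, 123, 123 and, under the floor, 46.8, which puts antagomir-429 at least 2.32-fold lower than its control. The antagomir-429 array was therefore the low one in 207042_at of E2F2 and in 204947_at of E2F1, and not in their brightest probe sets.

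E2F3, the remaining activator, was higher with the mimic by both probe sets. Its brightest, 203693_s_at, had 347 with the NC mimic, 517 with the miR-429 mimic, 374 with the NC antagomir and 369 with antagomir-429. The miR-429 mimic array stood above the other 3, which lay close together, and the log2 ratio was 0.58 with the mimic, 1.10 robust SDs, and -0.02 with the antagomir. Probe set 203692_s_at had 43.4, under the floor, with the NC mimic and 188, 211 and 219 on the others. Here the NC mimic array alone was low, and the miR-429 mimic was at least 3.55-fold higher. The comparison of the control arrays, which uses the same NC mimic array, gave at least 3.99-fold for this probe set and 0.11 on the log2 scale for the brightest.

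Of the repressors E2F4 and E2F5, E2F4 was past 2-fold in both pairs, by a different probe set in each, and E2F5 in neither. E2F4 by its brightest probe set, 38707_r_at, had signals of 523, 539 and 419 on the NC mimic, miR-429 mimic and NC antagomir arrays and 864 with antagomir-429. The antagomir-429 array was 2.06-fold above its control (log2 ratio 1.05), 4.06 robust SDs of genes of like signal. The suffix r marks a probe set for which Affymetrix relaxed its probe selection rules. The other probe set, 202248_at, had 79.4, 165, 241 and 275, with a log2 ratio of 0.19 for the antagomir and 1.06 for the mimic. In it the NC mimic array was the lowest, so E2F4 was past 2-fold with the mimic by 1 probe set and with the antagomir by the other.

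E2F5 had 255 with the NC mimic, 330 with the miR-429 mimic, 179 with the NC antagomir and 238 with antagomir-429 by its brightest probe set, 221586_s_at. In each pair the array with the miR-429 reagent was the higher, with log2 ratios of 0.37 and 0.41. Both EpCAM-positive arrays lay below both EpCAM-negative ones, and the control arrays differed by -0.52, 1.02 robust SDs. Its second probe set was under the floor on all 4 arrays.

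The atypical repressors E2F7 and E2F8 were both higher with the mimic and nearly level with the antagomir. E2F7 had signals of 447, 923, 640 and 646 by its brightest probe set, 228033_at, in the same array order. The miR-429 mimic array was the highest and its own control the lowest, with both EpCAM-positive arrays between them. The log2 ratio with the mimic was 1.05 or 2.06-fold, 2.27 robust SDs, and 95.2% of genes had a lower one. It was 0.94 with median centring and 0.96 with quantile normalization, just under 2-fold. With the antagomir it was 0.01, and between the control arrays 0.52. E2F8, measured by the single probe set 219990_at, had 316, 503, 449 and 432. The array order of E2F8 resembled that of E2F7 in its highest and lowest array, with log2 ratios of 0.67 for the mimic, -0.06 for the antagomir and 0.51 between the controls.

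The pocket proteins went different ways with the mimic. RB1 by its brightest probe set, 203132_at, had signals of 382, 486, 347 and 389. Its log2 ratios were 0.35 with the mimic, 0.17 with the antagomir and -0.14 between the controls, and it was the one member within 1 robust SD of genes of like signal in all 3 comparisons. The second RB1 probe set, 211540_s_at, did not pass the filter. It had 102 with the NC mimic and 13.5, 27.7 and 3.09 on the other arrays, all under the floor, so it was at least 1.93-fold lower with the mimic and allows no fold for the antagomir.

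RBL1 had the lowest log2 ratio of the members with the mimic. Its brightest probe set, 1559307_s_at, had 141 with the NC mimic, 71.1 with the miR-429 mimic, 78.3 with the NC antagomir and 92.1 with antagomir-429. The NC mimic array was the high one and the other 3 lay within a narrow range. The log2 ratio was -0.99 with the mimic, 1.99-fold and so just short of the threshold, and -0.85 between the control arrays. These are dim signals, and genes of like signal had a robust SD of 0.82. Median centring gave -1.10 and quantile normalization -1.04, past 2-fold. Probe set 205296_at, whose mean was under the floor, had 65.0 and 63.8 on the EpCAM-negative arrays, a log2 ratio of -0.03. The other 2 RBL1 probe sets were under the floor on every array.

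RBL2, the pocket protein that pairs with E2F4 in resting cells, was higher with both miR-429 reagents. Its brightest probe set, 212331_at, had 322 and 560 in EpCAM-negative cells with the NC and the miR-429 mimic, and 387 and 678 in EpCAM-positive cells with the NC antagomir and antagomir-429. Both control arrays lay below both arrays with a miR-429 reagent. The log2 ratios were 0.80 and 0.81, or 1.52 and 1.95 robust SDs, and the 2 pairs share no array. The mimic and the antagomir are meant to act in opposite ways on miR-429. The second RBL2 probe set was under the floor on all arrays.

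**Figure D2:**
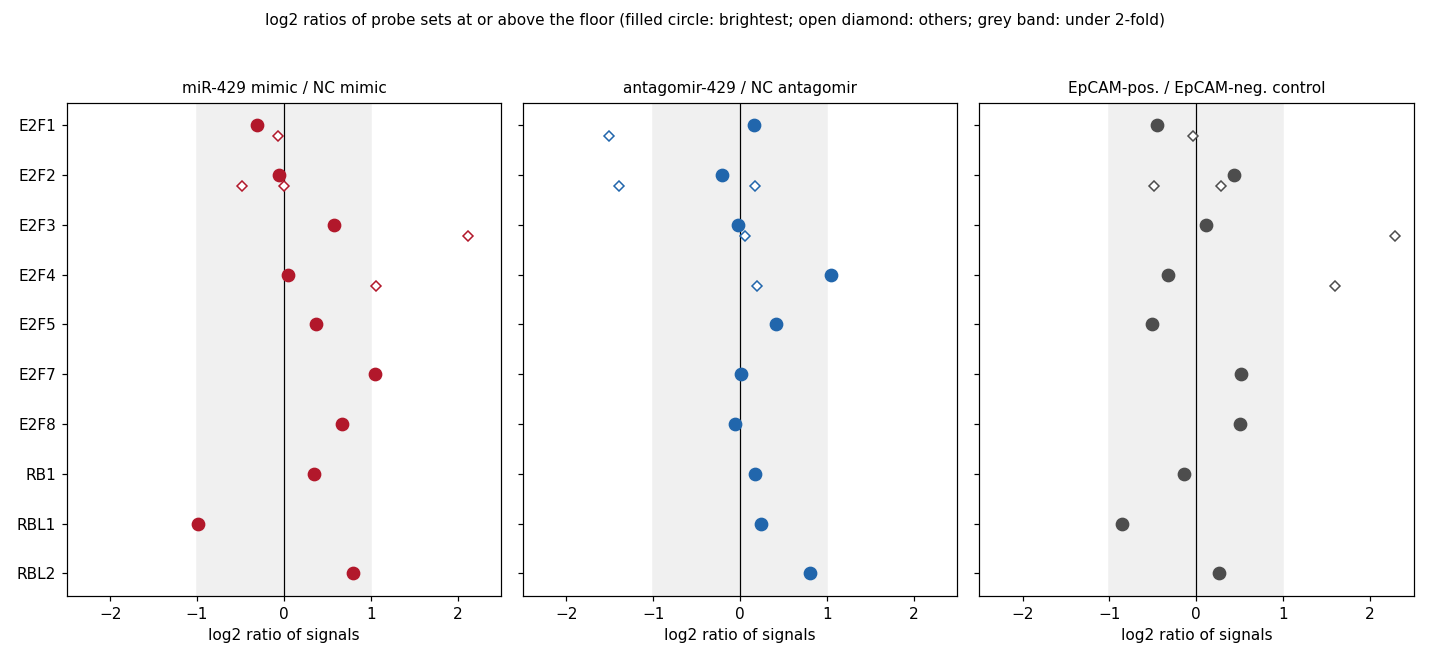
Log2 ratio (horizontal axis) of each probe set of the members (vertical axis) at or above the floor in the 3 comparisons, 1 array against 1 array; filled circles are the brightest probe sets, open diamonds the others, and the grey band spans less than 2-fold. RBL2 lies at 0.80 and 0.81 in the first 2 panels, and E2F3 and E2F4 have diamonds far from their circles in the first and the last.

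By single probe sets the members past 2-fold were more numerous, and they were not the same ones in each comparison. Of the 22 probe sets 15 passed the floor by their mean. With the mimic 3 of these 15 were at or past 2-fold, all higher, and they belonged to E2F3, E2F4 and E2F7. Of all 22829 passing probe sets with 1 gene, 10.7% were past 2-fold, 6.61% higher and 4.14% lower. With the antagomir 3 were, E2F4 higher and E2F1 and E2F2 lower, against 8.42% of all (4.32% higher and 4.1% lower). Between the controls 2 were, both higher and again from E2F3 and E2F4, against 10.1% of all (4.82% higher and 5.23% lower). In the 4 genes with several probe sets past the floor, the log2 ratios of a gene's probe sets spanned 0.25 for E2F1, 0.49 for E2F2, 1.54 for E2F3 and 1.01 for E2F4 with the mimic. With the antagomir the spans were 1.66, 1.56, 0.07 and 0.85, and between the controls 0.41, 0.91, 2.17 and 1.92. Over 5837 genes with several such probe sets, the median span was 0.54 with the mimic, 0.48 with the antagomir and 0.54 between the controls.

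Across the 4 arrays the miR-429 mimic array was the highest for 5 members, E2F3, E2F5, E2F7, E2F8 and RB1, and the antagomir-429 array was the lowest for 0. The shares of all genes in these positions were not computed, so these counts cannot be read as a trait of the family. For 2 members, E2F1 and RBL1, the brightest probe set was lower with the mimic but above its control with antagomir-429. Among all genes 23.1% had these directions. E2F1 changed sign with the antagomir when its probe sets were combined by their median (-0.68). E2F2 was lower in both pairs, as were 3553 of the 13180 genes past the floor. E2F3 and E2F8 were higher with the mimic and lower with the antagomir, with antagomir ratios near 0, and 2899 of the 13180 genes had these directions. The other 5 members were higher in both, as were 3677 of the 13180 genes past the floor. Of these 5 members, E2F7 turned to -0.02 with the antagomir, and E2F4 to -0.07 with the mimic, when arrays were centred on their medians.

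**Figure D3:**
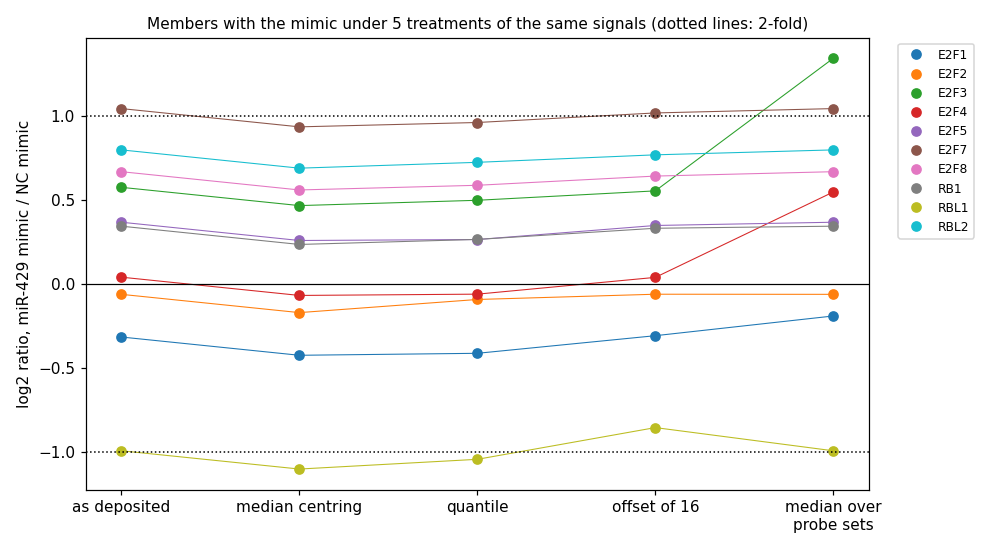
Log2 ratio between the mimic arrays (miR-429 over NC, vertical axis) for the 10 members under 5 treatments of the same signals (horizontal axis); dotted lines mark 2-fold, and lines join the values of a gene. E2F7 lies between 0.94 and 1.05 and RBL1 between -1.10 and -0.85, both around the threshold, and E2F3 reaches 1.35 when its probe sets are combined by their median.

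The mimic arrays also differed in other respects. The poly-A spike-in controls had a median log2 ratio of -0.90 and the hybridisation controls of -0.41 there, against 0.07 and 0.03 in the antagomir pair. They had -0.44 and -0.21 between the control arrays, a comparison that uses the same NC mimic array. Genes with a longer span in RefSeq had higher ratios with the mimic: in 5 groups of genes ordered by span the median went from -0.19 in the shortest to 0.22 in the longest. RB1, RBL1 and E2F3 belong to the longest group, and E2F7 and RBL2 to the next, whose median was 0.11. E2F2 and E2F5 are in the middle group (-0.02), E2F1 and E2F8 in the second shortest (-0.12) and E2F4 in the shortest. The members did not all follow these medians, since RBL1 had -0.99 and E2F8 0.67. From the shortest to the longest group the medians also rose between the control arrays, from -0.10 to 0.06, and with the antagomir, from -0.02 to 0.05. The part of the controls and of span in the members' ratios was not tested.

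Some members are themselves known to be controlled by E2F proteins, so the bases just before the members' start sites were searched. Those of the 4 members with a match are shown. Promoters were taken from RefSeq (GRCh38.p14) where the table holds a row at the gene's outermost start, which was so for 7 members, and the 250 bases before the start were searched on both strands for TTTCCCGC, TTTCGCGC, TTTGCCGC and TTTGGCGC, forms of the E2F consensus. A match was found in 4 of the 7 members and in 2.76% of 24882 promoters of all genes. Each sequence below is the 60 bases before the start, read 5′ to 3′ along the gene, with the matches in capitals.
E2F1, chr20:33686386-33686445, minus strand: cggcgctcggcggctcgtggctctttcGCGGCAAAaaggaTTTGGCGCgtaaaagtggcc
E2F2, chr1:23531234-23531293, minus strand: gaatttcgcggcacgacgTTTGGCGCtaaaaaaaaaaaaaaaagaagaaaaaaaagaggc
E2F3, chr6:20401819-20401878, plus strand: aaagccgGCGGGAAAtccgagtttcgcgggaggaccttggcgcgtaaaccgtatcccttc
RBL1, chr20:37095998-37096057, minus strand: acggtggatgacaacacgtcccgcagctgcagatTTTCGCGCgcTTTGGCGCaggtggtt
E2F1 and RBL1 each held 2 matches within 33 bases of the start. No match was found in the windows of E2F4, E2F7 and RBL2, which says only that these letters are not there. The 4 genes with a match did not move together: their log2 ratios with the mimic were -0.31, -0.06, 0.58 and -0.99, and with the antagomir 0.15, -0.20, -0.02 and 0.24. The words TTTGAA and TTCGAA, forms of the cell cycle homology region bound by the DREAM complex, were found in 1 of the 7 members, E2F3, and in 14.8% of all promoters.

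The genes around the family were described through 9 lists with 135 different genes, of which 122 passed the floor. With the mimic 3 of these 122 were at least 2-fold higher (5.25% of all genes) and 2 were lower (3.76%). With the antagomir 1 was higher (3.72%) and 1 lower (3.53%), and between the controls 1 was higher (3.62%) and 4 were lower (4.7%). Of all genes past 2-fold with the mimic 58.2% were higher, or 46.6% with median centring.

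The expressed DNA-binding partners of E2F proteins, and E2F6, were higher with the mimic, without reaching 2-fold. TFDP1 had signals of 6513, 8442, 8115 and 8157, TFDP2 of 1001, 1710, 1090 and 1039, and E2F6, a repressor that does not bind pocket proteins, of 387, 552, 522 and 643. Each of them was lowest on the NC mimic array, and TFDP1 and TFDP2 were highest on the miR-429 mimic array. Their log2 ratios with the mimic were 0.37, 0.77 and 0.51, and their median with the antagomir was 0.01, or -0.03 with median centring.

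The cyclins and kinases that phosphorylate pocket proteins had a median log2 ratio of -0.04 with the mimic and 0.13 with the antagomir over 12 genes. CCND2, a D-type cyclin, was the one past 2-fold with the mimic, at dim signals of 41.3, 83.2, 47.7 and 90.0, and was at least 1.57-fold higher against the floor (log2 ratio 0.90 with median centring, under 2-fold). It was also at least 1.70-fold higher with the antagomir. Both arrays with a miR-429 reagent were above both controls, which were under the floor. CDK1, the mitotic kinase, was high on the NC mimic array alone, with 5262 against 2863, 2745 and 3169.

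Of the kinase inhibitors upstream of the pocket proteins, 6 were measured and all passed the floor. With antagomir-429 all 6 lay below 0, while 51.0% of all genes lay above 0. The median of the 6 was -0.27, and 0 of them were past 2-fold. CDKN2A (-0.04) and CDKN1C (-0.12) were within 1 robust SD of genes of like signal (0.15), as was the dim CDKN2B (-0.28, robust SD 0.79). CDKN1A, CDKN1B and CDKN2D were past 1 robust SD. The largest were CDKN2D (log2 ratio -0.68), an inhibitor of CDK4 and CDK6, and CDKN1A (p21), whose signals were 6917, 4205, 4072 and 2783. The NC mimic array was the highest and the antagomir-429 array the lowest for CDKN1A. With the mimic the median was 0.05, or -0.06 with median centring, and CDKN2B, another inhibitor of CDK4 and CDK6, was past 2-fold. The NC mimic signal of CDKN2B was under the floor at 36.6, the others were 95.9, 105 and 86.6, and the fold was at least 1.81.

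The MuvB core forms the DREAM complex with E2F4 and RBL2, and binds MYBL2 and FOXM1 in their place later in the cycle. Of 9 genes of the core and its partners 7 were past the floor by their mean. The others, the core subunits LIN9 and LIN54, were lower with the mimic. LIN9 had 124, 8.95, 64.5 and 76.1 in the same array order, at least 2.35-fold lower with the mimic. LIN54 had 64.6, 13.5, 21.6 and 62.8, at least 1.22-fold lower with the mimic and at least 1.19-fold higher with the antagomir. RBBP4, a histone-binding MuvB subunit linked to miR-429 in the study behind the series, had log2 ratios of 0.51 with the mimic and 0.09 with the antagomir by its brightest probe set. Of its 4 other probe sets past the floor, 239071_at was lower with the mimic (-0.49), and the dim 225396_at, with 53.2, 246, 7.55 and 112, was 4.63-fold higher with the mimic and at least 2.11-fold higher with the antagomir. DYRK1A, the kinase that promotes DREAM assembly, had signals of 293, 564, 551 and 729 and was lowest on the NC mimic array. MYBL1, a MYB transcription factor, was at least 2.08-fold lower with the antagomir, where its median over 3 probe sets was 0.27. Of 16 corepressors and chromatin proteins KMT5B, a histone H4 methyltransferase, was past 2-fold with the mimic (log2 ratio 1.04, from signals of 254 and 124), or 0.93 with median centring, and 0 were lower. Of 13 ubiquitin ligases and phosphatases 0 were past 2-fold in any comparison, and MDM2, the p53 ligase that also binds RB1, had the largest ratio with the mimic (-0.80, or -0.12 as the median over its probe sets).

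Of 38 expressed targets of E2F proteins at the G1/S transition 0 were past 2-fold in any of the 3 comparisons. Most were bright: 33 passed the filter at the 75th percentile, and of all 8130 genes that passed it only 182 were past 2-fold with the mimic, 39 with the antagomir and 120 between the controls, so a count of 0 sets the list apart from nothing. Their median log2 ratio was 0.13 with the mimic, 0.06 with the antagomir and 0.08 between the controls. Above 0 lay 22, 26 and 22 of them, against 49.9%, 51.0% and 47.8% of all genes. The largest with the mimic were MCM10, a replication initiation factor (0.80), and DTL, a ubiquitin ligase adaptor (0.70). With the antagomir they were ATAD2, a bromodomain protein (0.83), and CCNE2, cyclin E2 (-0.65), and between the controls ORC1, an origin recognition subunit (0.80), and CHAF1B, a histone chaperone subunit (0.79).

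Most DREAM targets of G2 and mitosis were lower on the EpCAM-positive control array than on the EpCAM-negative one. Of 23 expressed genes 3 were past 2-fold lower on the EpCAM-positive array and 0 higher, against 4.7% and 3.62% of all genes. The count of 3 fell to 2 when 16 signal units were added, where KIF11 had a log2 ratio of -0.94. Their median was -0.19, against -0.02 for all genes, and 6 lay above 0, as did 47.8% of all genes. The proliferation antigen MKI67 lay highest, with 282 on the NC antagomir array against 150 with the NC mimic (1.88-fold; log2 ratio 0.91, or 0.58 as the median over its 4 probe sets). TOP2A, the mitotic topoisomerase, had 504 with the NC mimic, 444 with the miR-429 mimic, 203 with the NC antagomir and 365 with antagomir-429. HMMR, a spindle protein, had 698, 350, 287 and 213, and KIF11, a spindle kinesin, had 177, 190, 84.4 and 137. The NC antagomir array was the lowest for TOP2A and KIF11 and the NC mimic array the highest for TOP2A and HMMR. With the mimic TTK, a spindle checkpoint kinase, was the one of these genes past 2-fold (log2 ratio -1.10), HMMR was just inside and past it at -1.11 with median centring, and the median of the list was 0.10, or -0.004 with median centring. With the antagomir 0 were past 2-fold, with TOP2A at 0.85 and MKI67 at -0.88 (0.15 as the median over its probe sets), and the median was 0.15.

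Apoptosis and checkpoint genes known as E2F1 targets had 9 of 10 measured genes past the floor, with medians of -0.23 with the mimic, -0.14 with the antagomir and -0.46 between the controls. APAF1, the apoptosome scaffold, had 200 with the NC mimic, 58.5 with the miR-429 mimic, 45.2 with the NC antagomir and 78.4 with antagomir-429. The NC mimic array was the high one, and the log2 ratio was -1.78 with the mimic, but the median over its 3 probe sets was 1.22. With that median for each gene the list's own median turned to 0.08 with the mimic and 0.28 between the controls, and with the filter at the 75th percentile, which keeps 6 of its genes, it was 0.20 with the mimic. ATM, the DNA damage kinase, was past 2-fold higher with the antagomir (log2 ratio 1.41), with a median over 3 probe sets of 0.65.

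**Figure D4:**
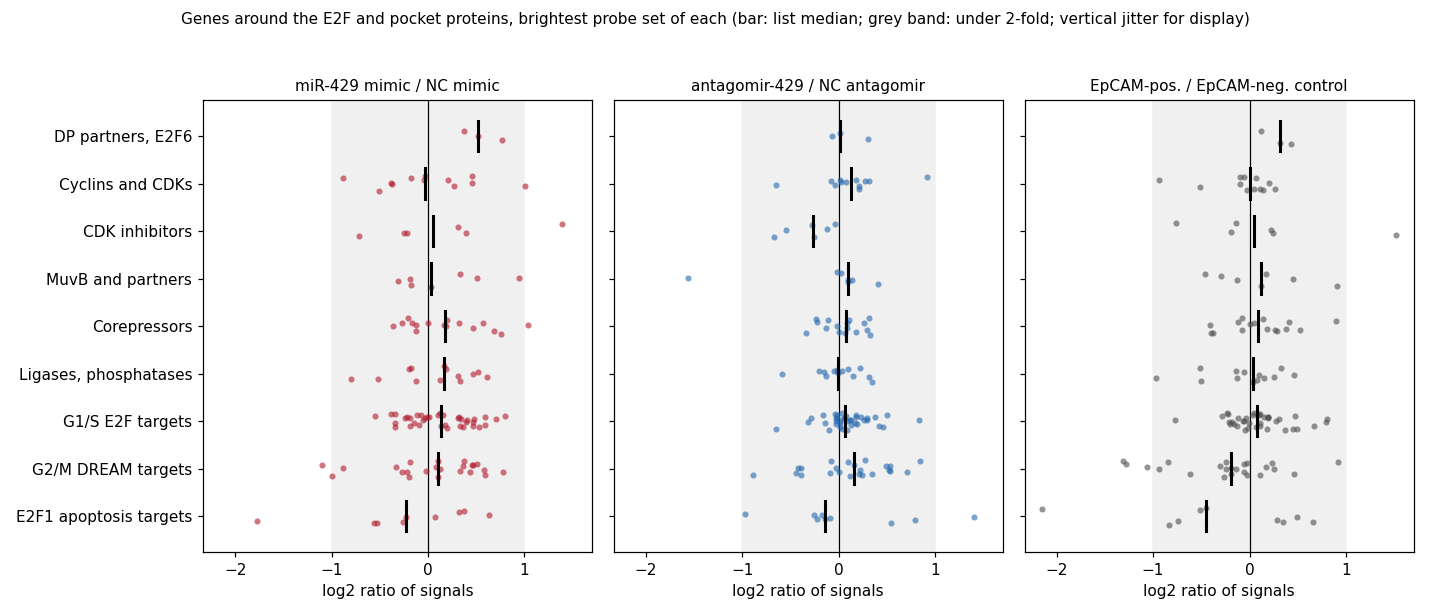
Log2 ratio (horizontal axis) of each gene at or above the floor in 9 lists of genes around the E2F and pocket proteins (vertical axis, points spread vertically for display) in the 3 comparisons, 1 array against 1 array; black bars are list medians and the grey band spans less than 2-fold. All 38 G1/S targets lie within 2-fold in each panel, and the bar of the G2 and mitosis targets lies at -0.19 between the controls.

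Among 11495 other genes at or above the floor on all 4 arrays, those with the pattern most like that of E2F1 were RWDD3, PFDN4 and ITPKC. Their distance from it over the 4 arrays, in log2 units after centring each gene, was 0.017, 0.036 and 0.037. The nearest to RB1 were SLC1A1, FNBP1L and CXorf38, at 0.019, 0.026 and 0.029. These likenesses rest on 4 arrays.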

How the data were processed

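RNA from 4 HCCLM3 samples was measured on Affymetrix Human U133 Plus 2.0 arrays, 1 per group. The deposited values are log2 signals of MAS5, per the submitters' processing notes. No source used here states the version, target level or detection calls. Log base and scaling were read from the values, since undoing log2 gave equal means after trimming 2% at each end.

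Of 54675 probe sets, 62 controls were left out, 41097 had 1 gene symbol in the platform annotation, 1801 several and 11777 none. Entrez identifiers of 41043 matched RefSeq genes (GRCh38.p14). The brightest probe set by mean log2 signal stood for a gene, and genes with a mean at or above the floor counted. Differences are log2 ratios of single arrays, counted at 2-fold, with no offset. Where 1 array of a pair was under the floor, the floor replaced its signal and the fold reads "at least". The counting of genes past 2-fold was run on simulated arrays without noise, with changes set larger than 2-fold. That checks the arithmetic only and says nothing about the error of these counts. The 3 comparisons were the mimic, the antagomir and the control arrays; the last shares an array with each of the others. Python 3.11.15 with pandas 2.3.3 was used.

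The members, lists and rules were chosen with earlier results of these data known. Named were all members, RBBP4, up to 4 genes of a list past 2-fold (otherwise its 2 largest), and the 3 genes most like E2F1 and RB1. Alternatives, 6 in number, were quantile normalization, median centring, adding 16 signal units, a filter at the 75th percentile (signal 265.6), no filter, and the median over a gene's probe sets.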

Additional observations from a re-analysis of the deposited data

How the results depend on the processing

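No paired analysis was possible because each group has 1 array, and none could be left out. With the median over probe sets, 2 members were past 2-fold with the mimic (E2F3 and E2F7), 0 with the antagomir and 1 between the controls (E2F3), in place of 1, 1 and 0. Under the other alternatives these counts kept their size, but with median centring or quantile normalization the mimic's member was RBL1, lower, in place of E2F7. The members' median ranged from 0.25 to 0.46 with the mimic, 0.08 to 0.16 with the antagomir and -0.02 to 0.28 between the controls. The filter at the 75th percentile left 182, 39 and 120 genes past 2-fold in all, in place of 1188, 955 and 1096, and 8 members; without a filter there were 4787, 4638 and 4803. With the mimic, 58.2% of genes past 2-fold were higher, and 46.6% with median centring. Of 174 alternative values of single members 6 moved by more than 1 robust SD of genes of like signal, all with the median over probe sets, and 31 of 162 alternative counts for the lists moved by more than 1.5 times. Low signal limits precision: of 4 equal groups of genes by signal, the dimmest had 24.9% past 2-fold with the mimic and the brightest 0.607%.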
